A study of Mus musculus with 16 samples.

Results

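Stab1, Stab2, Lyve1, Clec4g, Oit3, Fcgr2b, Gpr182 and Dnase1l3 are genes by which the endothelium of the liver sinusoid is commonly recognized, and their transcripts were followed here in MC38 liver metastases of mice. The genes were taken by name from the count tables of all 16 mice, after the Ensembl identifiers had been matched to mouse gene symbols on the GRCm39 build. All 8 were found among the 21959 genes listed, and all 8 passed the filter on low counts that left 13968 genes for testing. They were described over the 4 treatment groups and against Alb, the hepatocyte gene for serum albumin.

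MC38, a mouse colon adenocarcinoma cell line, had been injected into the spleen of C57BL/6 males without engineered alleles, aged 6 weeks, from which the cells reach the liver with the portal blood. Each group had 4 mice. Control mice received PBS, SB525334 mice the TGF-β receptor I (ALK5) inhibitor SB525334 at 20 mg/kg by daily oral gavage, KN046 mice the antibody KN046, which blocks both PD-L1 and CTLA-4, at 10 mg/kg by repeated intraperitoneal injection, and combination mice both drugs at these doses. RNA came from whole tumor tissue of the metastasis-bearing mice, so the values hold tumor cells, liver cells and infiltrating cells together, and fewer cells of a type and less RNA per cell cannot be told apart. The question was whether the sinusoidal endothelial transcripts differed between the treatments, whether they moved with the liver parenchyma, and whether they moved with endothelium in general.

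Liver sinusoidal endothelial cells line the capillaries between the plates of hepatocytes. They are fenestrated, lack an ordinary basement membrane and clear waste macromolecules from blood by endocytosis through scavenger receptors. In chronic injury and in the vessels of tumors growing in liver, this phenotype is known to give way to that of a continuous capillary, a process called capillarization.

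The scavenger receptors come first. Stab1 (chr14:30860970-30890598, minus strand) codes for stabilin-1, which sinusoidal endothelium shares with tissue macrophages. Stab2 (chr10:86675054-86843889, minus strand) codes for stabilin-2, the main hyaluronan clearance receptor of liver sinusoids, also found in the sinusoids of spleen and lymph node. Lyve1 (chr7:110448585-110462460, minus strand) codes for another hyaluronan receptor, shared with lymphatic endothelium and some macrophages. Fcgr2b (chr1:170786186-170804177, minus strand) codes for the inhibitory Fcγ receptor, which removes immune complexes in the sinusoid and is also carried by B cells and myeloid cells. Clec4g (chr8:3757064-3770671, minus strand) codes for the C-type lectin LSECtin, and Gpr182 (chr10:127580924-127587635, minus strand) for an atypical chemokine receptor. Oit3 (chr10:59258780-59277702, minus strand) codes for a secreted zona pellucida domain protein, and Dnase1l3 (chr14:14475200-14505240, plus strand) for a secreted DNase, which macrophages and dendritic cells also make. All 8 are protein coding, and the positions are those of GENCODE M39. On the opposite strand, Gpr182 overlapped Zbtb39 by 2295 bases, Stab1 overlapped Nt5dc2 by 113 bases and Oit3 overlapped Pla2g12b by 50 bases. Since the strand setting of the counting was not given in the sources used here, reads of these stretches cannot be told apart, and Fcgr2b, which has close paralogs among the Fc receptors, is uncertain in the same way.

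The 250 bases before the start of the canonical transcript are shown for Lyve1 and Clec4g, which were nearly absent with the combination, and for Stab2, which was not. Capitals mark matches, on either strand, to the letters AGATAA or TGATAA (the core of GATA factor motifs), AGGAAG (an ETS motif) and TGCTGA (a MAF motif). The first AGGAAG of Clec4g is on the reverse strand and reads CTTCCT, and the other 2 overlap.
Lyve1 (GRCm39 chr7:110462461-110462710, minus strand): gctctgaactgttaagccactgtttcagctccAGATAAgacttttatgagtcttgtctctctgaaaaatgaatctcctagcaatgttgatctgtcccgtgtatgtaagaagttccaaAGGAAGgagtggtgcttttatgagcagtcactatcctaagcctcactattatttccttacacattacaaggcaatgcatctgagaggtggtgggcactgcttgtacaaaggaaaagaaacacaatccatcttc
Clec4g (GRCm39 chr8:3770672-3770921, minus strand): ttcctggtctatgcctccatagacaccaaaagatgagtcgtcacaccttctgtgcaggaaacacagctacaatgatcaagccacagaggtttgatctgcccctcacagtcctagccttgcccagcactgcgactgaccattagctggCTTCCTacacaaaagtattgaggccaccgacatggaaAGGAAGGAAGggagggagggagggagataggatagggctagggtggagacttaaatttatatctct
Stab2 (GRCm39 chr10:86843890-86844139, minus strand): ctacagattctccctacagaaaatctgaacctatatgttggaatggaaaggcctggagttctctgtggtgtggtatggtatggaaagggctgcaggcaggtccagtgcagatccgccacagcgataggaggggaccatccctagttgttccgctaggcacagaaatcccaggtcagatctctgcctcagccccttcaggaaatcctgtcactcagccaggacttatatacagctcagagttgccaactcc
The GATA letters were found in Lyve1 and in 16% of 21404 promoter windows of the same length. The ETS letters were found in Stab1, Lyve1 and Clec4g and in 28.9% of all windows. The MAF letters were found in Stab1 and Dnase1l3 and in 14.8% of all windows. Stab2, Fcgr2b and Gpr182 held none of the 3. A match is a description of these letters only.

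The total count per mouse was between 18368994 and 23877131, and levels are given as CPM, a gene's counts scaled to a common library size after TMM normalization. Alb made up 0.801% to 0.842% of the counts in control mice, 0.013% to 0.0919% with SB525334, 0.542% to 1.03% with KN046 and at most 0.00115% with the combination, so the combination libraries, labelled liver metastases, held almost no hepatocyte RNA. The control libraries formed 2 pairs before any treatment was considered: the median chi-square over genes was 1.24 between mice 1 and 2 and 0.954 between mice 3 and 4, against 2.69 or more for every other pair of a group, yet both pairs differed beyond sampling noise and were kept as 4 mice. Of 13003 genes, 3.42% were over 2 times higher in mice 1 and 2 than in mice 3 and 4, and 6 of the 8 sinusoidal genes were among them. The ratio was 4.34 for Dnase1l3, 3.62 for Stab2, 3.60 for Oit3, 3.33 for Clec4g, 2.99 for Gpr182, 2.16 for Lyve1, 1.77 for Stab1 and 1.44 for Fcgr2b, against 0.949 for Alb and 2.17 for the endothelial gene Cdh5. Calls of the 8 genes on CPM that a control pair decides are given below with and without it. Calls of other genes are given with all control mice only.

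In brief, 6 of the 8 genes fell with SB525334, 1 rose with KN046, and 4 fell with the combination, 3 of them to a few counts or none. The shares of all genes called in the same directions were 9.22%, 1.6% and 9.74%. Without control mice 1 and 2, 4 genes remained called with SB525334, and the KN046 call was lost under several alternatives. Stab1 and Fcgr2b did not pass the test against control under any treatment. Stab2 fell with SB525334 but was 4.77-fold higher in the combination than with SB525334 alone, while Lyve1 was 15.8-fold lower.

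**Figure D1:**
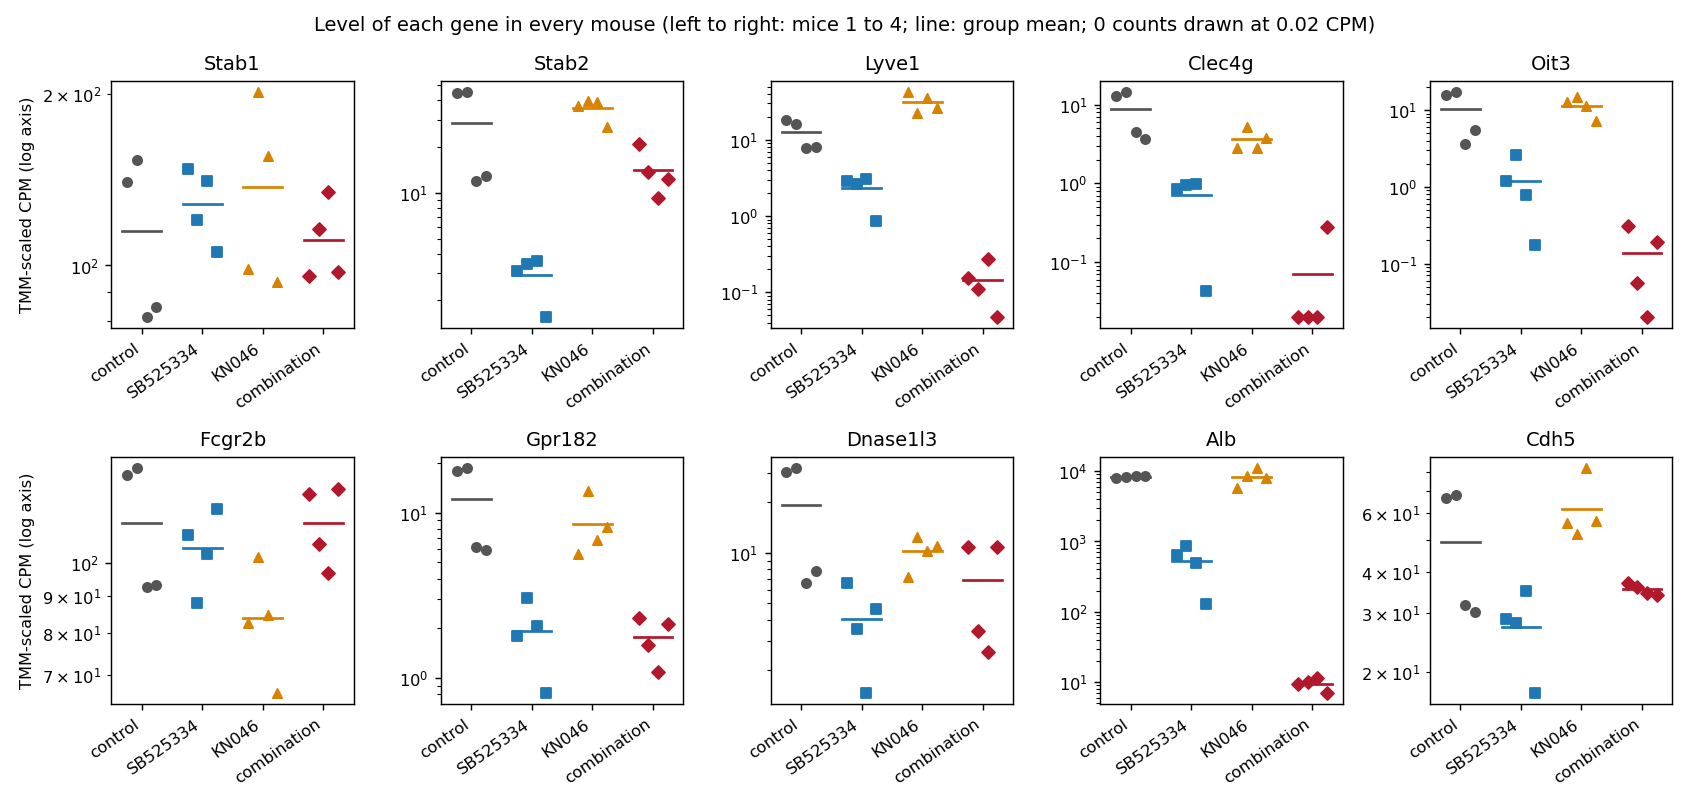
TMM-scaled CPM (log axis) of each of the 8 genes, of the hepatocyte gene Alb and of the endothelial gene Cdh5 in each of the 4 mice of the 4 groups, with the group mean as a line and 0 counts drawn at 0.02 CPM. Lyve1, Clec4g and Oit3 are at or near the bottom of their panels in the 4 combination mice, Stab1 and Fcgr2b overlap across all groups, and the control mice split into 2 pairs in most panels.

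Among the hyaluronan receptors, Lyve1 had the clearest separation of the groups. Its counts were 414, 343, 155 and 154 in control mice 1 to 4, and 63, 66, 71 and 20 with SB525334. With KN046 they were 788, 458, 626 and 499, and with the combination 3, 2, 5 and 1. No group overlapped another. On the CPM scale the group means were 12.6 ± 5.38 in control, 2.35 ± 1.01 with SB525334, 31.3 ± 8.92 in KN046 mice and 0.146 ± 0.0953 in combination mice (SD, n = 4 each). The 11 Lyve1 counts of the 4 combination mice together had a 95% Poisson interval of 5.49 to 19.7, which, like the other such intervals here, covers counting error only.

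Stab2, coding for the other hyaluronan receptor, did not follow Lyve1. Its level was 44.6, 45.2, 11.97 and 12.8 CPM in the control mice and 3.12, 3.46, 3.57 and 1.55 CPM with SB525334. It was 36.7, 39.8, 39.2 and 26.7 CPM with KN046 and 20.9, 13.6, 9.23 and 12.3 CPM with the combination. All SB525334 mice were below all others, while the combination mice were in the range of control mice 3 and 4 or between the control pairs, apart from mouse 3, which was below every control mouse. The counts behind the combination values were 406, 246, 169 and 260, so that Stab2 stayed well measured where Lyve1 was nearly absent.

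Stab1 and Fcgr2b were the most abundant of the 8 genes and overlapped across all 4 groups. Stab1 was at 140.4, 153, 81.1 and 84.5 CPM in control, 147, 120.3, 141 and 106 CPM with SB525334, 98.4, 201, 156 and 93.7 CPM with KN046, and 95.8, 116, 135 and 97.4 CPM with the combination. Fcgr2b was at 132, 135, 92.7 and 93.3 CPM in control, 109, 87.9, 103 and 119 CPM with SB525334, 82.6, 102, 84.8 and 66.1 CPM with KN046, and 125, 106, 96.7 and 127 CPM with the combination. Both genes are also carried by macrophages, and of 8 general macrophage genes none passed the test with SB525334 and only Mertk, an efferocytosis receptor, fell with the combination (-0.78 on the log2 scale). The summed level of those 8 genes was 904 to 951 CPM in control, 790 to 1199 CPM with SB525334, 545 to 1011 CPM with KN046 and 889 to 1009 CPM with the combination. Its part in the level of Stab1 and Fcgr2b was not tested.

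Clec4g, the lectin, was counted 295, 303, 89 and 70 times in the control mice and 19, 24, 23 and 1 times with SB525334. It was counted 53, 108, 51 and 72 times with KN046, and 0, 0, 0 and 6 times with the combination. All 6 combination counts thus came from mouse 4, with a 95% Poisson interval of 2.2 to 13.1 for their sum, and a count of 0 allows up to 3 counts in each of the other 3 mice. Gpr182 was at 17.8, 18.6, 6.19 and 5.96 CPM in control, 1.81, 3.07, 2.07 and 0.818 CPM with SB525334, 5.60, 13.4, 6.87 and 8.21 CPM with KN046, and 2.31, 1.6, 1.09 and 2.12 CPM with the combination. For Gpr182 the SB525334 and combination mice overlapped one another and were below every control and KN046 mouse.

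Of the 2 secreted proteins, Oit3 was counted 355, 360, 71 and 104 times in the control mice and 26, 66, 18 and 4 times with SB525334. With KN046 it was counted 236, 301, 203 and 140 times and with the combination 6, 1, 0 and 4 times. Oit3 thus resembled Lyve1 and Clec4g in being nearly absent with the combination, its 11 counts having a 95% Poisson interval of 5.49 to 19.7. Dnase1l3 was at 30.4, 32.1, 6.64 and 7.79 CPM in control, 6.60, 3.50, 1.46 and 4.65 CPM with SB525334, 7.20, 12.4, 10.3 and 11.1 CPM with KN046, and 10.8, 3.42, 2.57 and 10.8 CPM with the combination. Its combination mice fell apart into mice 1 and 4, above control mice 3 and 4, and mice 2 and 3, below every control mouse.

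Compared per kilobase of exon, the order of the control means was Fcgr2b (19.4 ± 4.05 CPM per kb), Stab1 (11.2 ± 3.63), Dnase1l3 (3.74 ± 2.7), Oit3 (3.60 ± 2.37), Lyve1 (3.02 ± 1.29), Stab2 (2.66 ± 1.74), Gpr182 (2.41 ± 1.39) and Clec4g (1.87 ± 1.17, SD, n = 4 each). The last 6 did not differ from their neighbours beyond these SDs. In the combination mice the order was Fcgr2b (19.4 ± 2.48), Stab1 (10.8 ± 1.77), Dnase1l3 (1.34 ± 0.879), Stab2 (1.30 ± 0.458), Gpr182 (0.354 ± 0.109), Oit3 (0.0477 ± 0.0479), Lyve1 (0.0351 ± 0.0229) and Clec4g (0.0149 ± 0.0299, SD, n = 4 each). There Dnase1l3 and Stab2 could not be placed in order, nor could the last 3, and Stab2 stood above Gpr182.

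SB525334 was compared with control to ask whether inhibition of the TGF-β receptor alone changed these transcripts. By edgeR's quasi-likelihood test over all 16 mice, with p-values adjusted by the Benjamini-Hochberg method over all genes tested, 6 of the 8 genes were lower at an adjusted p under 0.05, against 9.22% of all genes tested. Clec4g fell by 3.63 on the log2 scale (SE 0.65, adjusted p = 6.4e-04), or 12.3-fold. Stab2 fell 9.77-fold (log2 difference -3.29, SE 0.43, adjusted p = 2.46e-05) and Oit3 fell 8.67-fold (log2 difference -3.12, adjusted p = 0.00143). Gpr182 was 6.23-fold lower (adjusted p = 3.45e-04), Lyve1 5.35-fold lower (adjusted p = 1.07e-04) and Dnase1l3 4.76-fold lower (adjusted p = 0.0125). In these same 6 genes every SB525334 mouse was below every control mouse, as held for 13.3% of all genes, though for Dnase1l3 only by 6.60 against 6.64 CPM. Stab1 differed by 0.16 on the log2 scale (95% interval -0.34 to 0.67) and Fcgr2b by -0.12 (-0.44 to 0.21), so a change of either beyond these bounds lies outside the interval. The median log2 difference of the 8 genes was -2.53, against 0.00 over all genes. The Dnase1l3 call rested on control mice 1 and 2: without mouse 1 the adjusted p was 0.051, without mouse 2 it was 0.0548, and without both the log2 difference was -0.83 (adjusted p = 0.565). Without both, Oit3 also missed the threshold (log2 difference -1.91, adjusted p = 0.0874), while Stab2, Lyve1, Clec4g and Gpr182 stayed past it.

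With KN046, the PD-L1 and CTLA-4 antibody, only Lyve1 passed the test, 2.49-fold higher than control (log2 difference 1.31, SE 0.33, edgeR adjusted p = 0.0404), against 1.6% of all genes called higher. All 4 KN046 mice were above all 4 control mice for Lyve1, as was the case for 4.94% of genes. The call missed the threshold when control mouse 2, 3 or 4 or KN046 mouse 1 or 3 was left out (adjusted p 0.0594 to 0.137), without control mice 3 and 4 (log2 difference 0.87, adjusted p = 0.237) and with each control pair summed to 1 sample (adjusted p = 0.246). It was also missed with library totals, the 8 mice alone or limma on the normalized values (0.0689 to 0.0816). With summed pairs 0 of 14241 genes were called, and without control mice 3 and 4 0.056% were. Those single mice left out gave 0.149% to 0.74% of all genes called. Library totals, the 8 mice alone and limma gave 1.83%, 0.547% and 4.58%. Clec4g differed by -1.27 (95% interval -2.48 to -0.06, adjusted p = 0.196), Dnase1l3 by -0.91 (-2.04 to 0.22), Gpr182 by -0.51 (-1.37 to 0.35) and Fcgr2b by -0.44 (-0.76 to -0.11, adjusted p = 0.108) on the log2 scale. Stab2 differed by 0.31 (-0.49 to 1.11), Stab1 by 0.26 (-0.25 to 0.76) and Oit3 by 0.14 (-0.99 to 1.27). Leaving out KN046 mouse 2 brought Fcgr2b past the threshold (log2 difference -0.53, adjusted p = 0.0327), along with 14.9% of all genes against 4% with every mouse kept. Leaving out control mice 1 and 2 brought Stab2 past it (1.52, adjusted p = 0.0291), with 3.44% of all genes called.

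With the combination, 4 of the 8 genes were lower than in control, against 9.74% of all genes, and the same 4 had no overlap between the mice, against 12.1% of all genes. The control mean was 86.0 times the combination mean for Lyve1, 125 times for Clec4g and 75.4 times for Oit3, and the fitted log2 differences were -6.40 (SE 0.52, edgeR adjusted p = 3.94e-08), -6.74 (SE 0.87, adjusted p = 1.26e-05) and -6.14 (SE 0.80, adjusted p = 1.42e-05). These ratios rest on the 11, 6 and 11 combination counts given above, and the log2 differences ran from -6.85 to -5.74 for Lyve1, -10.51 to -5.63 for Clec4g and -8.27 to -4.94 for Oit3 over the alternatives. Gpr182 fell 6.78-fold (log2 difference -2.76, SE 0.45, adjusted p = 1.97e-04). The other 4 genes did not pass: Stab2 was at 48.8% of its control mean (log2 difference -1.04, 95% interval -1.85 to -0.22, adjusted p = 0.106), Dnase1l3 at 35.9% (-1.48, -2.63 to -0.32, adjusted p = 0.105), Stab1 at 96.6% (-0.05, -0.56 to 0.46) and Fcgr2b at 100.02% (0.00, -0.32 to 0.32). The median of the 8 log2 differences was -2.12, against 0.01 over all genes. Stab2 depended on the control mice, since its log2 difference was 0.17 without control mice 1 and 2 and -1.68 (adjusted p = 4.57e-04) without control mice 3 and 4. It also passed the threshold without control mouse 3 (adjusted p = 0.0257), control mouse 4 (0.0314) or combination mouse 1 (0.0495), and Dnase1l3 did so without control mouse 3 (0.0441). Dnase1l3 depended on the control pairs as well, with a log2 difference of -0.066 (adjusted p = 0.986) without control mice 1 and 2 and -2.17 (adjusted p = 0.00745) without control mice 3 and 4.

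**Figure D2:**
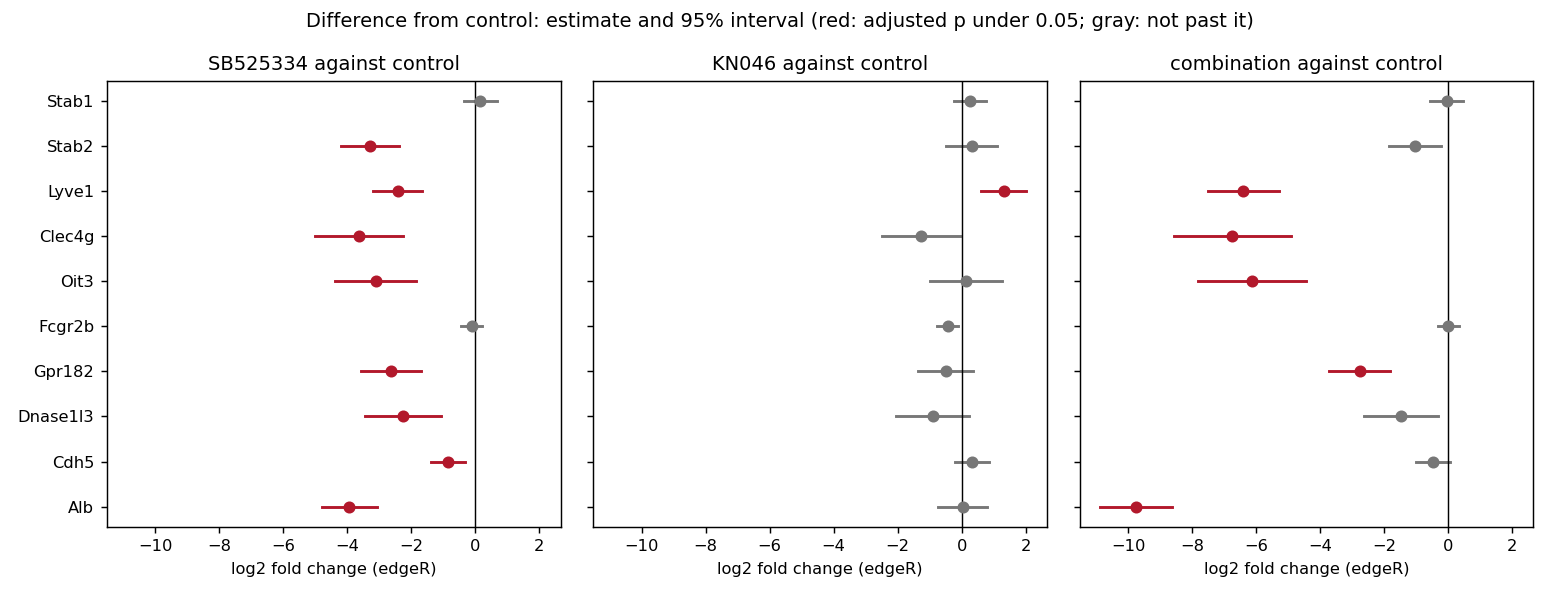
Log2 fold change of the 8 genes, of Cdh5 and of Alb in each treatment against control (edgeR), with bars for the 95% interval, red where the adjusted p was under 0.05 and gray where it was not. Stab1 and Fcgr2b sit near 0 in all 3 panels, and Lyve1, Clec4g and Oit3 lie beyond -6 with the combination, with Alb at -9.75.

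Combination mice 1 and 4, in which Dnase1l3 was at 10.8 CPM each, also carried the most B cell RNA. Of 7 B cell genes, Cd79a and Cd79b, coding for the signaling chains of the B cell receptor, rose with the combination against control (log2 differences 2.82 and 2.59) and none passed in the other treatments. Their summed level was 22.6 CPM in combination mouse 1 and 62.4 CPM in mouse 4, against 2.81 and 2.29 CPM in mice 2 and 3 and 2.38 to 5.59 CPM in control, 0.947 to 3.42 CPM with SB525334 and 2.7 to 11.8 CPM with KN046. Tlx1, Nkx2-5 and Coch, expressed in splenic stroma, all rose with the combination, and their summed level was 10.2 and 9.003 CPM in mice 1 and 4, 2.81 and 2.84 CPM in mice 2 and 3 and at most 0.131 CPM in control, 0.172 CPM with SB525334 and 0.34 CPM with KN046, with all 3 at 0 counts in control mouse 4. The part of splenic or B cell RNA in the Dnase1l3, Stab2 and Fcgr2b levels was not tested. Without combination mice 1 and 4, Dnase1l3 was lower than control (log2 difference -2.68, adjusted p = 0.0148), Stab2 still did not pass, and Lyve1, Clec4g, Oit3 and Gpr182 remained called lower.

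Set against KN046 alone, the combination asks what SB525334 added to the antibody. Here 5 genes were lower, against 14.5% of all genes, namely Lyve1 (210-fold, log2 difference -7.71, edgeR adjusted p = 6.4e-09), Oit3 (77.6-fold), Clec4g (44.4-fold), Gpr182 (4.76-fold) and Stab2 (2.54-fold, log2 difference -1.35, adjusted p = 0.0189). All 5 had no overlap between the groups, against 12.4% of genes. Fcgr2b was 1.35-fold higher (log2 difference 0.44, adjusted p = 0.0481), against 9.89% of all genes called higher. The Stab2 call was lost when combination mouse 2, 3 or 4 was left out (adjusted p 0.0504 to 0.0661), and the Fcgr2b call when KN046 mouse 1, 3 or 4 or combination mouse 1, 2 or 4 was (0.0655 to 0.117). The Fcgr2b call was also lost with RLE scaling (0.0523), a mean CPM of at least 1 (0.0534), library totals (0.0685) and the 8 mice alone (0.0754). Without combination mice 1 and 4, which carried the most B cell RNA, Fcgr2b differed by 0.27 (adjusted p = 0.292).

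Set against SB525334 alone, the combination asks what the antibody added to the inhibitor. Lyve1 was 15.8-fold lower (log2 difference -3.98, SE 0.56, edgeR adjusted p = 1.85e-04), against 3.03% of all genes called lower, and Stab2 was 4.77-fold higher (2.25, SE 0.42, adjusted p = 0.00287), against 0.544% of all genes called higher. Both had no overlap between the groups, which held for 4.62% of genes in the first direction and 2.43% in the second. Clec4g (-3.12, adjusted p = 0.109) and Oit3 (-3.02, adjusted p = 0.0665) missed the threshold, but both passed when SB525334 mouse 4, in which they were counted 1 and 4 times, was left out (0.0195 and 0.014), and Clec4g passed without combination mouse 4 (0.0371), which held all its combination counts. Gpr182 differed by -0.12 (95% interval -1.08 to 0.84) and Dnase1l3 by 0.77 (-0.40 to 1.95).

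The interaction, which asks whether the effect of SB525334 differed with and without KN046, passed the test for Lyve1 alone of the 8 genes, against 2.55% of all genes called in the same direction. For Lyve1 the SB525334 effect was -2.42 without KN046 and -7.71 with it, a difference of -5.29 on the log2 scale (SE 0.66, edgeR adjusted p = 9.24e-05). The hepatocyte genes moved the same way, 13 of 13 being called lower in the interaction with a median of -5.90, and their part in the Lyve1 difference was not tested. Stab2 had a difference of the opposite sign, from -3.29 to -1.35, which did not pass (1.94, SE 0.56, adjusted p = 0.0631). It passed without control mouse 3 (adjusted p = 0.0211) or 4 (0.0253), and was 2.59 (adjusted p = 0.00146) without both and 0.72 (adjusted p = 0.281) without control mice 1 and 2. Oit3, at -3.16 (adjusted p = 0.103), passed without SB525334 mouse 4 (0.0348) and without control mice 1 and 2 (-4.37, adjusted p = 0.026).

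Alb was taken as the measure of hepatocyte RNA. Its level was 8186 ± 268 CPM in control, 535 ± 314 CPM with SB525334, 8342 ± 2183 CPM with KN046 and 9.52 ± 1.88 CPM in the combination mice (SD, n = 4 each). It was at 6.54% of its control mean with SB525334, at 101.9% in KN046 mice and at 0.116% in combination mice, an 859.7-fold fall. Of 13 hepatocyte genes, 13 fell with SB525334 and 13 with the combination, with Hpx (log2 difference -10.36), Apoa1 (-10.23) and Ttr (-10.03) farthest down in the latter, and none of 13 passed with KN046. Because the fall of Alb enters every ratio to it, the ratio of nearly every gene rose: 6 of the 8 genes were higher per Alb with SB525334 than in control, against 96.2% of all genes, and 99% of all genes were higher with the combination (limma on log2 ratios of counts with 0.5 added). The error of these ratios is that of Alb and is shared by all genes, so their p-values are not separate tests and are not given. Alb enters the ratio of every gene alike. Sizes set against the median of all genes therefore restate the differences on CPM, apart from the added 0.5, and say nothing more about Alb. The median log2 ratio difference was 1.72 for the 8 genes against 4.24 for all genes with SB525334, and 7.77 against 9.78 with the combination.

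Per 1000 Alb counts, Clec4g was at 1.64, 1.77, 0.538 and 0.435 in control and 1.32, 1.09, 2.03 and 0.334 with SB525334, and Oit3 at 1.98, 2.10, 0.43 and 0.646 in control and 1.81, 3.01, 1.59 and 1.34 with SB525334. For both, the SB525334 mice overlapped the control mice, as did Stab2 and Dnase1l3, whereas Stab1, Lyve1, Fcgr2b and Gpr182 did not overlap, against 94.9% of all genes. The ratio of Clec4g and Oit3 to Alb differed between SB525334 and control by 0.30 and 0.89 on the log2 scale, and the sign of both turned negative without control mice 3 and 4 (-0.61 and -0.09). With the combination, Stab1, Stab2, Lyve1, Fcgr2b, Gpr182 and Dnase1l3 were higher per Alb in every mouse than in any control mouse, against 95.8% of all genes. Clec4g was at 0, 0, 0 and 40.0 per 1000 Alb counts and Oit3 at 32.97, 5.46, 0 and 26.7, so both overlapped control. A count of 0 over 182 to 212 Alb counts allows up to 14.2 to 16.5 per 1000, more than any control mouse had, so no direction could be given for the mice at 0. The log2 ratio differences, in which 0.5 was added to every count, were 7.17 for Gpr182, 8.36 for Dnase1l3, 8.95 for Stab2, 9.76 for Stab1 and 9.78 for Fcgr2b. Stab1 and Fcgr2b were thus at the median of all genes, as they were on the CPM scale. Those of the 3 nearly absent genes were smaller and depended on the added 0.5 and on single mice, at 3.49 for Lyve1 (2.90 to 4.81 over the alternatives), 3.52 for Oit3 (2.08 to 5.21) and 2.52 for Clec4g (1.47 to 5.12).

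**Figure D3:**
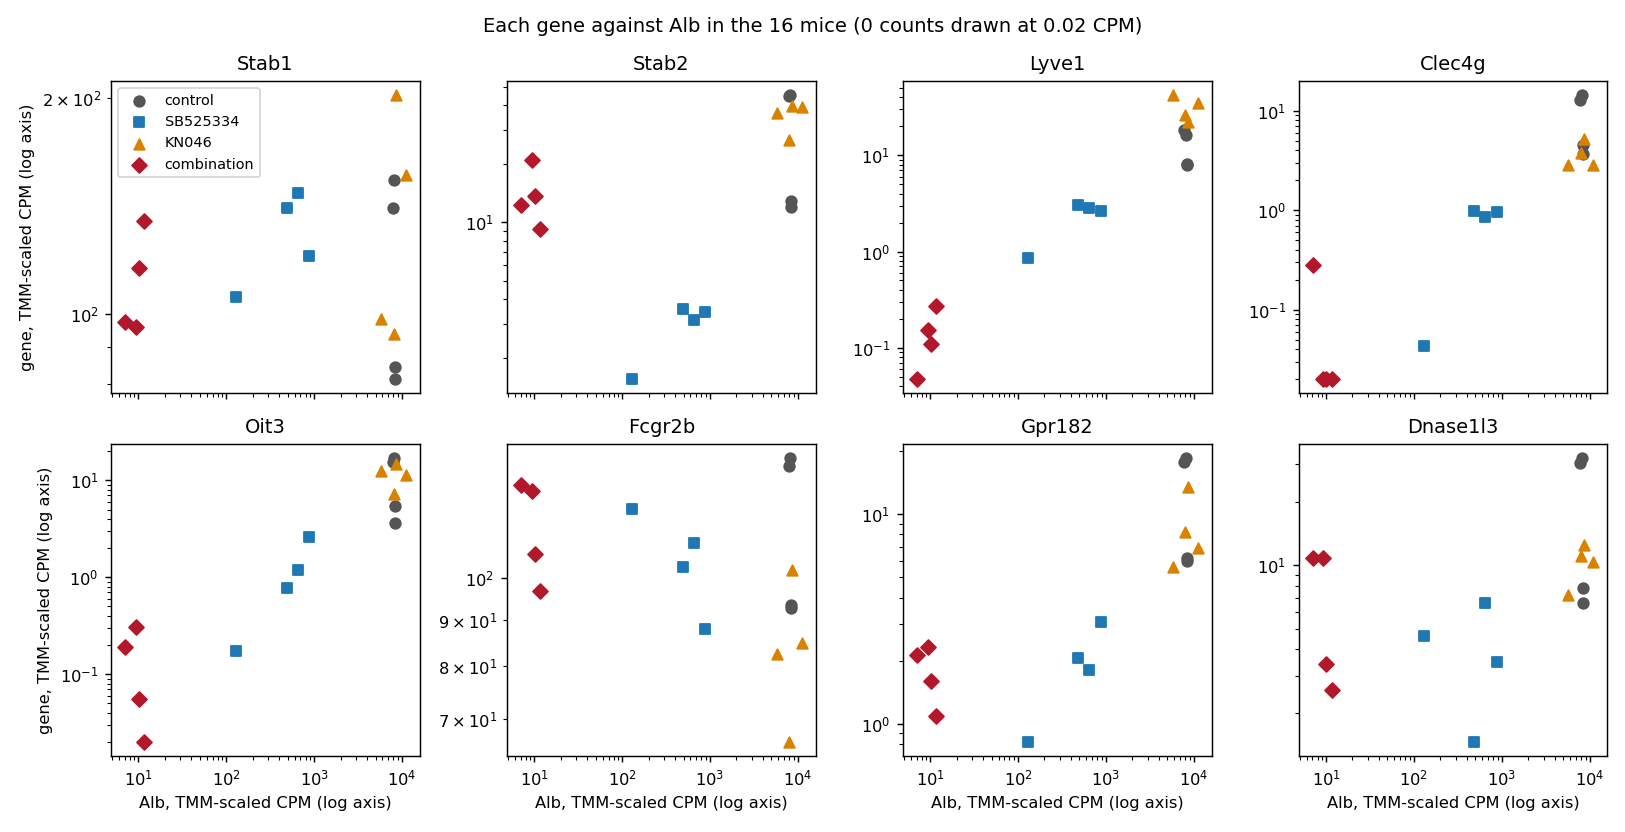
TMM-scaled CPM of each of the 8 genes against that of Alb in the 16 mice (both axes log, one point per mouse, 0 counts drawn at 0.02 CPM). For Lyve1, Clec4g and Oit3 the groups line up along Alb from combination through SB525334 to control and KN046, whereas for Stab2 the combination mice, with the least Alb, lie above the SB525334 mice.

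The same genes were set against Cdh5, the adherens junction cadherin of all endothelium, to ask whether they moved beyond endothelium in general. Cdh5 itself was at 66.8, 68.2, 31.9 and 30.4 CPM in control, 28.9, 28.1, 34.9 and 17.3 CPM with SB525334, 56.0, 51.9, 82.2 and 57.0 CPM with KN046 and 37.1, 36.1, 34.4 and 34.1 CPM with the combination. It fell with SB525334 (log2 difference -0.85, SE 0.25, edgeR adjusted p = 0.0398) and did not pass with the combination (-0.48, SE 0.25, adjusted p = 0.283) or with KN046 (0.32, adjusted p = 0.456). Per 100 Cdh5 counts, Lyve1 was at 27.1, 23.8, 24.7 and 26.5 in control, so that the split of the control mice was no longer seen for Lyve1. It was at 9.86, 9.36, 8.74 and 4.99 with SB525334, 75.0, 42.9, 42.6 and 45.5 with KN046 and 0.416, 0.306, 0.792 and 0.138 with the combination, with no overlap between any groups. Stab2 per 100 Cdh5 counts was at 66.8, 66.2, 37.6 and 42.2 in control, 10.8, 12.3, 10.2 and 8.98 with SB525334, 65.6, 76.7, 47.7 and 46.8 with KN046 and 56.2, 37.6, 26.8 and 36.0 with the combination. Only the SB525334 mice stood apart for Stab2. The split of the control mice remained for Stab2 and for Dnase1l3 (45.6, 47.2, 20.9 and 25.6 per 100 Cdh5 counts). The split was turned round for Fcgr2b (199, 199, 291 and 307) and for Stab1 (210, 225, 255 and 278).

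By limma on the log2 ratios to Cdh5, 5 of the 8 genes were lower with SB525334 than in control, against 5.29% of all genes, with no overlap between the mice in the same 5, against 5.63% of all genes. The error of Cdh5 enters the ratio of every gene, so the p-values of these ratios are not separate tests. Clec4g was 8.86-fold lower (adjusted p = 0.00251), Oit3 5.88-fold (adjusted p = 0.00689), Stab2 4.86-fold (adjusted p = 2.96e-05), Gpr182 3.43-fold (adjusted p = 0.00185) and Lyve1 3.17-fold (adjusted p = 0.00411). Without control mice 1 and 2 only Stab2 and Lyve1 passed, and without SB525334 mouse 4 Oit3 missed the threshold (adjusted p = 0.0623). Dnase1l3 (log2 difference -1.28, adjusted p = 0.057), Stab1 (1.0004, adjusted p = 0.0528) and Fcgr2b (0.69, adjusted p = 0.0769) did not pass, and the median over all genes was 0.79. All 3 passed without control mouse 4, a setting in which 71.6% of all genes were called, against 8.31% with every mouse kept. Stab1 and Dnase1l3 passed also without control mouse 3, with 68.5% of all genes, and Stab1 and Fcgr2b without SB525334 mouse 3, with 59.6%. With every mouse kept, Stab1 and Dnase1l3 passed with 5 added to the counts, a mean CPM of at least 1 or limma's trend option. Those settings called 43.1%, 45.2% and 55.1% of all genes. In these settings Stab1 and Fcgr2b were higher and Dnase1l3 lower per Cdh5 count.

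With the combination, 4 genes were lower per Cdh5 count than in control, against 7.07% of all genes: Clec4g (117-fold), Lyve1 (59.7-fold), Oit3 (58.5-fold) and Gpr182 (4.68-fold, limma adjusted p = 6.52e-05). The first 3 folds rest on 0 to 6 counts a mouse with 0.5 added, and over the alternatives their log2 ratio differences ran from -7.77 to -4.24 for Clec4g, -6.24 to -4.55 for Lyve1 and -7.11 to -4.15 for Oit3, the smallest with 5 added. Stab2 was not called (log2 ratio difference -0.45, adjusted p = 0.438), but passed without control mice 3 and 4 (-0.82, adjusted p = 0.0316), along with 63.6% of all genes. Against KN046 the same 4 were lower, against 6.52% of all genes, and Fcgr2b was 2.33-fold higher, against 40.1% of all genes called higher. Against SB525334, Lyve1 (18.8-fold), Clec4g (13.2-fold) and Oit3 (9.95-fold) were lower, with the same low counts and added 0.5 in each fold, against 4.42% of all genes, and Stab2 was 3.57-fold higher (adjusted p = 2.73e-04), against 0.265% of all genes. With KN046 against control none of the 8 was called by limma. At an unadjusted p under 0.05, Clec4g, Fcgr2b and Gpr182 were lower, as were 17.6% of all genes, whose median was -0.44, and Lyve1 was higher (0.97), as were 0.379% of all genes.

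**Figure D4:**
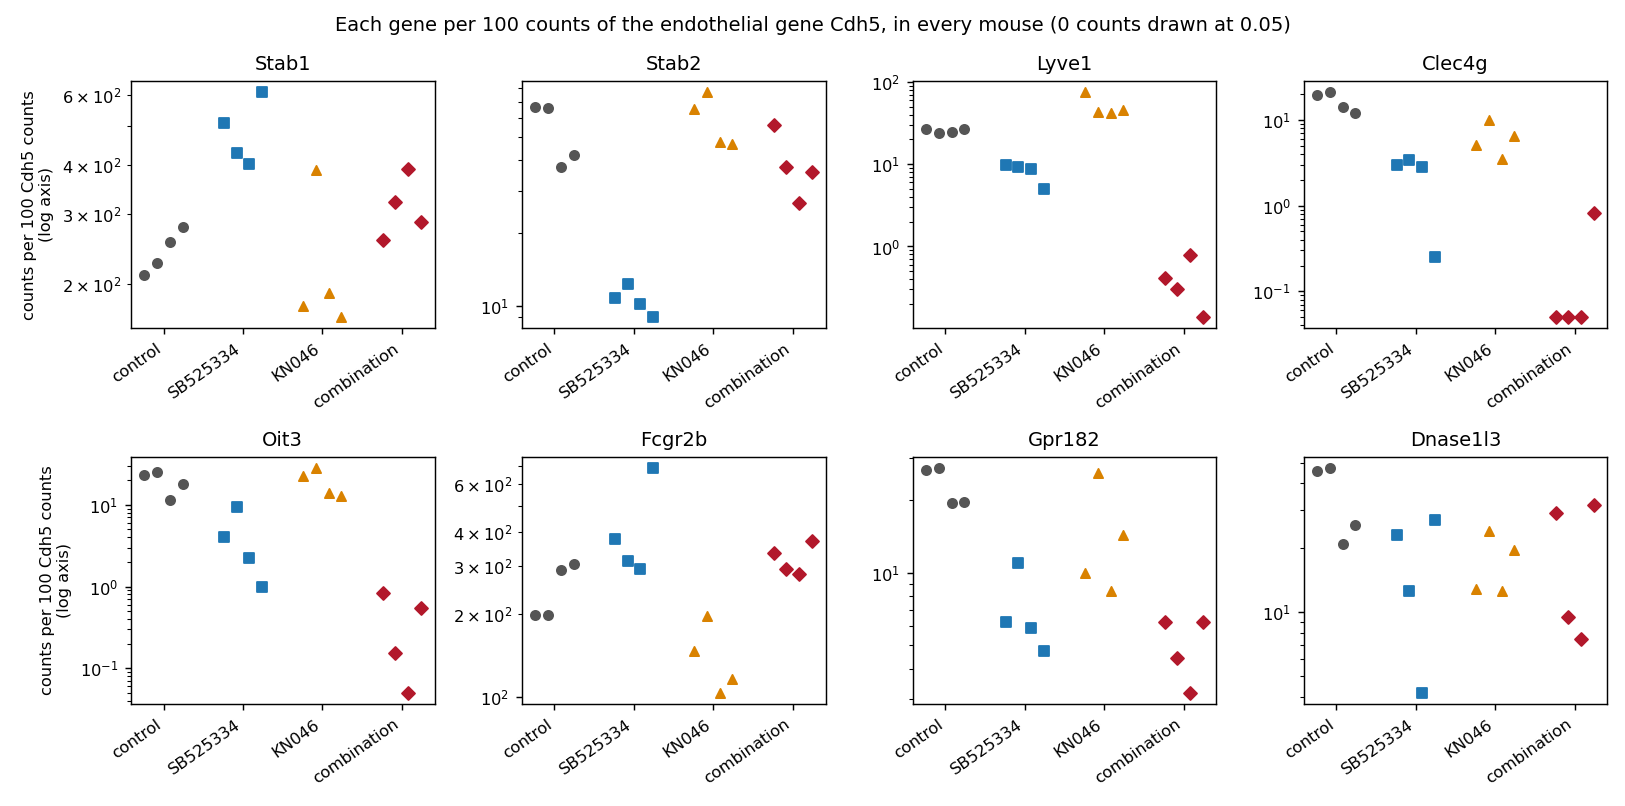
Counts of each of the 8 genes per 100 counts of Cdh5 (log axis) in each of the 4 mice of the 4 groups, with 0 counts drawn at 0.05. Lyve1 forms 4 separate bands, Clec4g and Oit3 are lower with SB525334 than in control and lowest in most combination mice, and for Stab2 only the SB525334 mice lie apart.

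Other genes of the sinusoidal endothelium were taken as a list of 13, of which 12 could be tested. With SB525334 9 of the 12 fell and none rose, with a median log2 difference of -2.19. With the combination 9 of the 12 fell and none rose, with a median of -2.85, and with KN046 none passed. Gata4, the transcription factor that holds the sinusoidal program, was the farthest down with the combination (log2 difference -8.35, adjusted p = 3.38e-09) and fell less with SB525334 (-1.82, adjusted p = 3.17e-04), and it was the 1 gene of the list called in the combination against SB525334 and in the interaction. The angiocrine genes Wnt9b (-5.07, adjusted p = 0.00332) and Bmp2 (-3.64, adjusted p = 3.64e-05) also fell with the combination. Of 5 lymphatic endothelial genes, among which Lyve1 is often counted, 4 could be tested: Prox1, their master regulator, fell with SB525334 (-3.27) and with the combination (-5.05), and Reln fell with the combination (-6.06). Both are expressed in liver outside lymphatics as well, Prox1 in hepatocytes and Reln in stellate cells.

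Endothelial genes not particular to the sinusoid were taken as a list of 15. Of these, 8 fell with SB525334 (median log2 difference -1.07), 5 fell and 1 rose with the combination (median -0.60), and none passed with KN046. Tek, the angiopoietin receptor, fell with the combination by 1.63 and the adhesion receptor gene Adgrl4 by 1.59 on the log2 scale, while Cldn5, a tight junction claudin, rose (1.15, adjusted p = 0.02). Kdr, the VEGF receptor, fell with SB525334 (-1.68, adjusted p = 0.00937) and differed by -1.19 with the combination (adjusted p = 0.0701), and Pecam1 fell with SB525334 (-1.07, adjusted p = 0.0145) and differed by -0.25 with the combination. Kdr was at 42.9, 43.8, 11.2 and 12.02 CPM in control mice 1 to 4 and at 9.22, 9.67, 11.96 and 3.40 CPM with SB525334. It thus overlapped control mice 3 and 4, whereas Pecam1 was below every control mouse with SB525334. Of 7 genes of capillary and tumor vessel endothelium, 5 fell with SB525334 (median -1.21) and 2 with the combination (median -0.55), the latter Vwf (-2.81), the carrier of factor VIII, and Esm1 (-1.39), a tip cell gene. Cd34, a gene of continuous capillaries, did not pass in any comparison with control and was at 492 ± 71.8 CPM in control, 581 ± 47.4 with SB525334, 553 ± 103 in KN046 mice and 634 ± 53.2 in combination mice (SD, n = 4 each). In control mice 1 to 4 Cd34 was at 428, 431, 558 and 550 CPM, lower in mice 1 and 2, where Cdh5 was higher. Per 100 Cdh5 counts Cd34 was at 641, 633, 1752 and 1811 there, so it did not follow Cdh5. The part of vessels in the Cd34 level was not tested. Whether the 8 genes moved more than these lists was not tested.

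The other cells of the sinusoid moved too. Of 7 Kupffer cell genes, 6 fell with SB525334 (median log2 difference -3.75) and 6 with the combination (median -4.30), Clec4f by 3.94 and 9.89 and Vsig4, a complement receptor, by 2.99 and 7.34 on the log2 scale. The summed Kupffer cell level was 172 to 351 CPM in control, 10.4 to 26.3 with SB525334, 64.7 to 423 in KN046 mice and 3.28 to 13.5 in combination mice. Clec4f, the defining gene, was at 38.3 CPM or less in control mice 3 and 4 and at 94.7 and 100.2 CPM in mice 1 and 2, the same split as the sinusoidal genes. Of 8 tested hepatic stellate cell genes, 5 fell with the combination (median -3.15) and 1 with SB525334 (median -0.74), with Colec10, a collectin, at -6.31, Lrat, which stores retinoid, at -5.71 and the transcription factor Hand2 at -4.68 in the combination. The summed stellate cell level did not fall. It was 823 to 916 CPM in control, 887 to 979 with SB525334, 770 to 1351 in KN046 mice and 918 to 938 in combination mice. The summed hepatocyte level was 15154 to 17861 CPM in control, 398 to 1974 with SB525334, 9309 to 19229 in KN046 mice and 13.95 to 22.8 in combination mice. Among dendritic cell genes, which include a source of Dnase1l3, none of 6 passed in any comparison with control, and their summed level was 48.1 to 81.3 CPM in control, 37.6 to 68.4 with SB525334, 22.5 to 48.2 in KN046 mice and 34.05 to 83.2 in combination mice. The part of lost liver tissue in the sinusoidal differences was not tested, and the content of liver in a library cannot be told apart from the treatment here, since every combination mouse had at most 0.00115% of its counts in Alb.

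**Figure D5:**
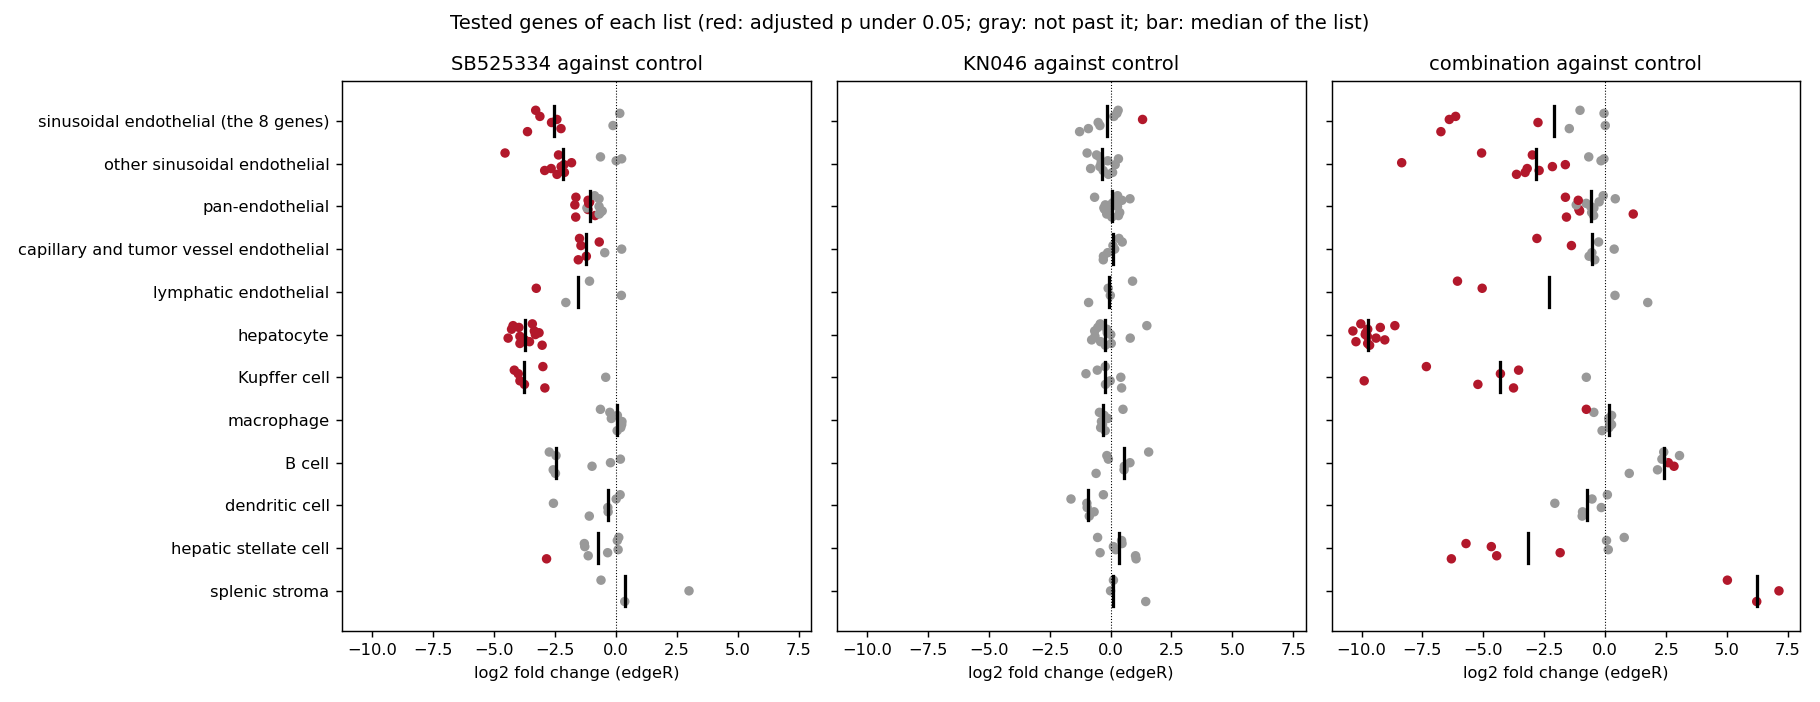
Log2 fold change (edgeR) of every tested gene of the 12 gene lists in each treatment against control, one point per gene, red where the adjusted p was under 0.05, with a bar at the median of each list. Sinusoidal endothelial, hepatocyte and Kupffer cell genes lie mostly to the left with SB525334 and with the combination, no list but the 8 genes has a red point with KN046, and the splenic stroma genes are red, all to the right, with the combination alone.

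The 8 genes did not vary as 1 group across the 16 mice. On the log2 CPM scale, the Pearson correlation over the 16 mice was 0.946 between Clec4g and Oit3, 0.941 between Lyve1 and Oit3 and 0.887 between Lyve1 and Clec4g, and each of the 3 had a correlation of 0.925 to 0.970 with Alb. Gpr182 was close to the same 3 (0.792 to 0.918). Stab2 had its highest correlation with Cdh5 (0.893), against 0.405 with Alb. Stab1 had its highest correlation with Cdh5 (0.394). Fcgr2b had its highest with Dnase1l3 (0.320), and its largest in size were negative, -0.433 with Lyve1 and -0.382 with Alb. These values hold differences between groups as well as within them and come from the same libraries. Among 12830 genes outside the 8, those closest to their mean standardized profile were F8 (r = 0.972), Klhl3 (0.952), Cib3 (0.947), Cyp4b1 (0.944), Sema6d (0.941), Ehd3 (0.936), N4bp2l1 (0.935), Rcsd1 (0.935), Ptprb (0.935) and Clec14a (0.928, n = 16 mice each). F8 codes for coagulation factor VIII, and F8 and Ehd3 are 2 of the 13 other sinusoidal genes. Alb came 918th in that order (r = 0.758), Cdh5 605th (0.794) and Clec4f 212th (0.841).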

How the data were processed

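Tumor RNA of 16 mice, 4 per group by the labels, was analysed. The sources name Cutadapt 2.7 for trimming, HISAT2 2.2.1 for alignment to GRCm39 and HTSeq 2.0.4 for counting. The authors deposited raw counts per gene, used in the tests here, and normalized values (DESeq2 1.38.3), treated as a score because they are rounded, used in 1 alternative. The settings for strand and for reads with several alignments are not given in the sources used here.

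Counts were tested by the quasi-likelihood method of edgeR 4.0.16 (R 4.3.3) in 1 fit of all 4 groups. Libraries were scaled by TMM, genes were filtered by filterByExpr (min.count 10), and p-values were adjusted over the 13968 genes left by Benjamini-Hochberg (threshold 0.05). The biological coefficient of variation was 20.1%. Ratios to Alb and Cdh5 were compared with limma 3.58.1 on log2((count + 0.5)/(reference count + 0.5)). All tests were two-sided. CPM values are TMM-scaled, and CPM per kb divides them by the exon length in GENCODE M39, which held 21770 of the 21959 identifiers. The promoter windows were read from the GRCm39 genome at the GENCODE M39 canonical starts. Treatments against control share the control mice, and the 2 comparisons with the combination share the combination mice.

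The 8 genes, the gene lists and the tests were chosen with earlier results of these data known, and no list is independent evidence of its direction. Besides the 8 genes, Alb and Cdh5, the text names at most 3 genes of each list, those with the largest change in the combination among those called there, plus Clec4f, Pecam1, Kdr and Cd34, and the 10 genes most like the mean profile. Other genes were named after their values were seen. The promoter window of Oit3 and 1 single gene of the lists are not reported here. The alternatives were DESeq2 1.42.0, other scalings, filters and pseudocounts, the 8 mice of a comparison alone, a replicate block, summed control pairs, the study's thresholds and each mouse left out. Tested on simulated counts for the 13968 genes with 200 genes changed, edgeR called 99.5% of the changed and 16 of the unchanged genes in the combination against control. There all mice were independent, all genes had the same dispersion and the changed genes moved by the same factor, up or down. The control libraries here formed pairs and the 8 genes varied widely among them, so these shares do not carry over to the 8 genes. The p-values set each difference against the spread between mice and the counting error, and the total counts set the precision of low genes. Whether the paired control libraries hold the spread of separate mice cannot be told.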

Additional observations from a re-analysis of the deposited data

Results flagged for a closer look

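In 3 of the 40 groups of 4 mice examined, 1 mouse stood so far from the rest that its gap to the nearest mouse exceeded Dixon's 95% limit as a share of the group's range, where chance gives about 2 in 40. Clec4g was at 0.0431 CPM in SB525334 mouse 4 against 0.859 to 0.990 CPM in the other SB525334 mice, a gap of 0.862 of the range on CPM. The counts behind these values were 1 against 19 to 24. Clec4g was counted 6 times in combination mouse 4 and 0 times in the other combination mice, a gap of 1 of the range. Cdh5 was at 82.2 CPM in KN046 mouse 3 against 51.9 to 57.0 CPM in the other KN046 mice, a gap of 0.831 of the range. The effect of SB525334 on Lyve1 differed between mice with and without KN046 by the interaction term, -5.29 on the log2 scale (edgeR adjusted p = 9.24e-05), while 13 of 13 hepatocyte genes were called lower by the same term with a median of -5.90.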

How the results depend on the processing

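Of 1558 values of single genes under the alternatives, 1425 kept their direction and side of the threshold. The count of the 8 genes called stayed within 1.5 times of the 6 with SB525334 (4 to 6), of the 4 with the combination (4 to 6) and of the 6 against KN046 (4 to 6) under every alternative, those chosen after seeing the data included. The shares of all genes called were 7.21% to 11.9%, 8.37% to 17.9% and 12% to 30.6% in these 3 comparisons. For KN046 against control (1) the count was 0 with library totals alone, with the 8 mice alone, with summed control pairs, with limma on the normalized values and without control mice 3 and 4, and 2 with the study's thresholds and without control mice 1 and 2. It was 0 to 2 with each mouse left out. KN046 against control called 4% of all genes with every mouse kept. The share was 0% to 4.58% under the alternatives named and 0.149% to 14.9% with each mouse left out. For the combination against SB525334 (2) the count was 4 with DESeq2, the study's thresholds and limma on the normalized values, and 2 to 4 with each mouse left out. These settings called 3.79%, 5.88%, 3.79% and 2.9% to 3.7% of all genes, against 3.57% with every mouse kept. For the interaction (1) it was 2 with DESeq2, 4 with the study's thresholds, 1 to 2 with each mouse left out, and 2 without either control pair. With a replicate block it was 3 (Stab2, Lyve1 and Oit3). The interaction called 4.28% of all genes with every mouse kept and 2.68% to 8% in these settings. The labels give the mice numbers, but only 7 of 24 same-numbered pairs had a correlation over 0.1 and 6 of 16 mice were closest to a mouse of their own number, so the numbers were not taken to pair the mice, and the block moved no other count of calls by over 1.5 times (3 against 2 for the combination against SB525334). Against Alb, the SB525334 count (6) was 2 without control mice 3 and 4, where 95.3% of all genes were called against 96.5% with every mouse kept. Against Cdh5, the SB525334 count (5) was 4 to 8 with each mouse left out, 2 without control mice 1 and 2 and 8 without control mice 3 and 4. These settings called 5.24% to 71.6%, 5.23% and 80.3% of all genes, against 8.31% with every mouse kept. The KN046 count (0) against Cdh5 was 1 with a pseudocount of 5 and 1 without control mice 1 and 2. Those 2 settings called 7.47% and 66.3% of all genes, against 2.36% with every mouse kept. The leaving out of a control pair and of combination mice 1 and 4 was chosen after seeing the data, and the cause of these moves was not tested.

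The direction of 36 values turned, none of them past the threshold in both settings. Without control mice 1 and 2 the log2 difference was 0.17 for Fcgr2b with SB525334, 0.49 for Gpr182 and 0.51 for Dnase1l3 with KN046, 0.42 for Stab1 and 0.17 for Stab2 with the combination, and -0.62 for Gpr182 in the interaction. Without control mice 3 and 4 it was -0.19 for Stab1 with SB525334, -0.095 for Stab1, -0.33 for Stab2 and -0.51 for Oit3 with KN046, -0.24 for Fcgr2b with the combination, and -0.61 for Clec4g and -0.086 for Oit3 per Alb with SB525334. Without combination mice 1 and 4 it was 0.13 for Stab1 and -0.16 for Fcgr2b against control, -0.053 for Fcgr2b and -0.44 for Dnase1l3 against SB525334, and -0.037 for Gpr182 in the interaction. Stab1 with the combination was 0.0023 by limma on the normalized values and -0.18 to 0.12 with single mice left out, and Fcgr2b was -0.013 with library totals, -0.0044 with a mean CPM of at least 1, -0.0034 with the 8 mice alone and -0.078 to 0.094 with single mice left out. With single mice left out, Oit3 with KN046 was -0.15 to 0.49, Gpr182 in the combination against SB525334 was -0.37 to 0.18, and Clec4g per Alb with SB525334 was -0.057 to 0.68. Depth limits Lyve1, Clec4g and Oit3 in the combination, where their counts were between 0 and 6 a mouse. No alternative scaling moved the median of all genes by 0.1 on the log2 scale.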
